A study of Mus musculus with 30 samples.

Results

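Gene expression in mouse lumbar dorsal root ganglia on day 8 after dexamethasone was compared with saline of the same day. The comparison rests on 3 dexamethasone and 3 saline libraries, 6 of the 30 in the study, chosen by their treatment labels. The study gave male wild type C57BL/6J mice saline, the combination regimen CVAD, or 1 of its parts (cyclophosphamide, vincristine, doxorubicin or dexamethasone), and asked how the single drugs act in chemotherapy-induced neuropathy. Ganglia L3 to L5 of both sides were collected after perfusion with RNAlater, on day 2 or day 8. Every group carried the same genotype and strain and no transgene. The dexamethasone group received no cytotoxic drug by its label, and the saline group no active drug. The labels give no dose, no number of doses and no time of day, and they do not say whether a library is 1 animal or a pool. "Day 8" is therefore known only as the day of collection after treatment, and the interval since the last dose is not given in the sources used here.

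Dexamethasone is a synthetic glucocorticoid. It binds the glucocorticoid receptor, a nuclear receptor held in the cytoplasm by HSP90 and its co-chaperones, which then moves to the nucleus, binds DNA at palindromic response elements and turns on genes such as Fkbp5, Tsc22d3, Per1 and Sgk1, while it represses many inflammatory genes driven by NF-kB and AP-1. The products of several induced genes limit the response: FKBP5 lowers the affinity of the receptor for its ligand. In the ganglion, sensory neuron somata are wrapped by satellite glia, their axons by Schwann cells, and macrophages sit between them.

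TPM values (transcripts scaled to a library total of 1e+06) are means ± SD of 3 libraries where not given one by one, in the order of replicates 1, 2 and 3. Replicate numbers name libraries and have no order. Fold changes are on the log2(TPM + 1) scale, with SE and unadjusted 95% intervals from a limma fit, and a positive value means higher in dexamethasone. The scale understates the change of genes with few TPM. The number of reads behind the TPM is unknown, so counting error was not computed, and the p-values measure only the spread between libraries, which may be technical in part. Because the tissue is a mixture, fewer cells of a type and less RNA per cell cannot be told apart.

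The 6 libraries had 25404 to 27585 genes above 0, and the coding share of the TPM was 63.2 to 69.9% in dexamethasone and 66.6 to 69.6% in saline. Pairs of libraries had correlation coefficients across tested genes of 0.962 to 0.969, and the median was 0.965 for pairs of 1 group and 0.965 for pairs of both. Saline replicate 3 stood apart in its clock genes and in its red blood cell genes. Saline replicate 1 was the lowest in its skeletal muscle genes, at a summed 99.2 TPM beside 157 in dexamethasone replicate 3. Several results that rest on these saline libraries, though not all, are given with and without them. Sensory neuron markers were high in all 6 libraries: Scn10a, the nociceptor sodium channel Nav1.8, stood at 230.2, 285 and 266 TPM in dexamethasone and 252, 298 and 259 in saline.

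No gene passed the test between dexamethasone and saline on day 8. Of 25434 genes tested, 0 passed an adjusted p of 0.05 in limma with Benjamini-Hochberg adjustment (0% called), and 830 (3.26%) had an unadjusted p under 0.05 (319 higher, or 1.25%, and 511 lower, or 2.01%). The smallest adjusted p was 0.0720, for a noncoding entry of Rmrp described below, and among 15314 protein-coding genes it was 0.524. Adjusted p-values of the coding genes named below are therefore 0.524 or more, and none of those genes is called. The 3 libraries of one group lay wholly above or below those of the other for 1656 genes (6.51%), 510 of them higher in dexamethasone (2.01%) and 1146 lower (4.51%). The fitted value was below 0 for 14233 genes (56%) and above 0 for 10928 (43%), with a median of -0.023. With median-ratio scaling, 521 of 1075 genes at an unadjusted p under 0.05 were higher, or 48.5% against 38.4% as deposited.

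The intervals bound the size of most differences. On the log2(TPM + 1) scale the 95% interval lay within a 2-fold change in either direction for 19869 genes (78.1%). Among the 13278 genes with a mean of at least 10 TPM it did so for 12934 (97.4%). For genes of few TPM an interval inside this bound can hold a larger change in TPM. The median SE was 0.191 over all tested genes and 0.115 over the more abundant ones. These intervals are per gene and unadjusted. The plot of fold change against abundance shows the spread narrowing as abundance grows, with the glucocorticoid-induced genes inside it.

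**Figure D1:**
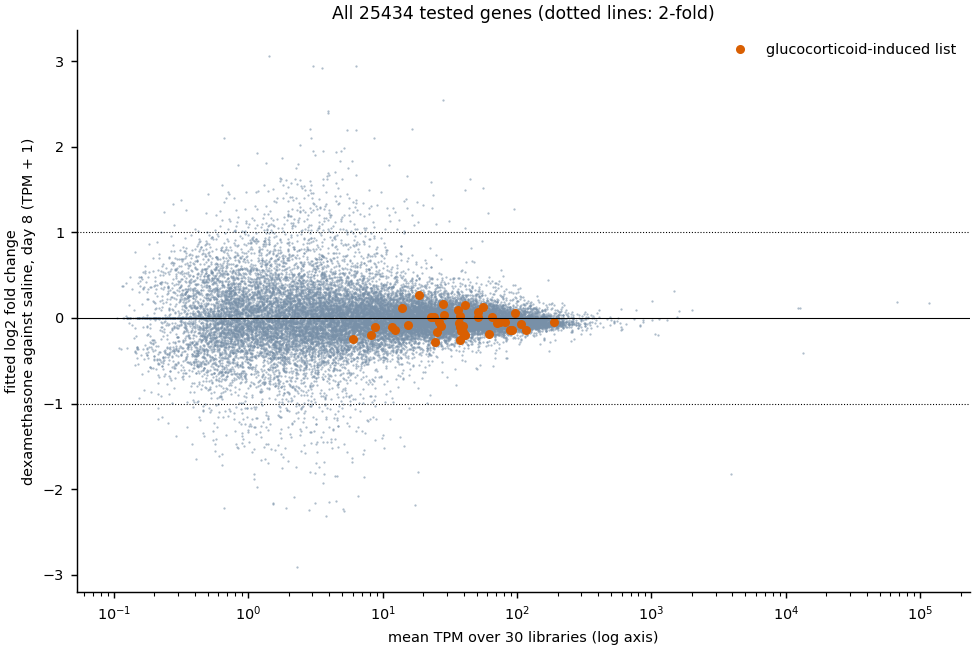
Fitted log2 fold change of dexamethasone against saline on day 8 (vertical axis) against the mean TPM over 30 libraries (horizontal log axis) for 25434 tested genes. Orange points are the 40 glucocorticoid-induced genes, which lie between -0.28 and 0.27, and dotted lines mark a 2-fold change.

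The receptor gene Nr3c1 overlapped between the groups. It stood at 57.6, 53.5 and 60.02 TPM in dexamethasone and 66.5, 45.9 and 52.1 in saline, a difference of 0.071 ± 0.12 with an interval of -0.17 to 0.31. Saline replicate 1 held the highest value and saline replicate 2 the lowest, so the dexamethasone range lay inside the saline range. Nr3c2, which encodes the mineralocorticoid receptor, was at 29.1 ± 3.65 TPM against 26.9 ± 3.81. Hsd11b1, whose enzyme regenerates active glucocorticoid inside cells, was at 3.61 ± 1.29 against 4.10 ± 2.02. Hsd11b2, which encodes the inactivating enzyme, was below the filter. Of 20 genes of the receptor, its chaperones, cofactors and steroid handling, 19 were tested, 6 were higher, 13 lower and 0 called, with a median of -0.039 beside -0.023 for all genes. All 19 intervals lay within a 2-fold change.

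The classical induced targets did not separate the groups. Fkbp5, the co-chaperone of the receptor's own feedback loop, was at 42.1, 58.6 and 57.2 TPM in dexamethasone and 53.7, 50.6 and 77.7 in saline, a difference of -0.19 ± 0.26 with an interval of -0.72 to 0.34 (a ratio of 0.606 to 1.27 on the fitted scale). Dexamethasone replicate 1 was the lowest of the 6 libraries and saline replicate 3 the highest, and without that saline library the difference was -0.002. Tsc22d3, which encodes the anti-inflammatory mediator GILZ, was at 102, 109.7 and 112 TPM against 109, 128 and 120.3, or -0.14 ± 0.13 with an interval of -0.42 to 0.13. Its groups overlapped at their edges. Sgk1, a kinase that acts on ion channels, was at 36.3, 26.1 and 37.2 against 39.5, 30.8 and 44.3 (-0.20 ± 0.30), and again the groups overlapped. The transcription factor gene Zbtb16 was at 19.7, 25.5 and 17.9 against 21.4, 15.6 and 32.7 (-0.091 ± 0.59). Its wide interval of -1.30 to 1.12 leaves room for a 2-fold change in either direction. Klf9, another glucocorticoid-induced transcription factor gene, was measured more tightly, at 62.9, 68.4 and 70.01 against 66.3, 65.8 and 78.3, with an interval of -0.35 to 0.23.

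Groups also overlapped for genes of metal binding, metabolism and growth control. The metallothionein genes Mt1 and Mt2, whose products bind zinc and copper, were at 72.2 ± 7.34 against 75.1 ± 11.3 TPM and 40.2 ± 2.85 against 38.8 ± 8.46, with intervals of -0.29 to 0.19 and -0.45 to 0.60. Pdk4, a kinase that restrains pyruvate dehydrogenase, was at 26.95, 13.9 and 14.7 TPM in dexamethasone and 15.6, 15.97 and 12.4 in saline. Only dexamethasone replicate 1 was high, and the other two libraries of its group lay among the saline values. Cdkn1a, the cell cycle inhibitor p21, was at 95.9, 79.6 and 118 against 97.4, 72.1 and 115. Dusp1, a phosphatase that switches off MAP kinases, was at 39.7 ± 6.70 against 38.9 ± 5.21, and Nfkbia, the inhibitor of NF-kB, at 37.7 ± 2.78 against 40.5 ± 6.48.

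Over the 40 glucocorticoid-induced genes, all tested, 14 were higher, 26 lower and 0 called, and none had an unadjusted p under 0.05. The median was -0.065 beside -0.023 for all genes, and the 26 lower members stand beside 56% of all genes with a value below 0. No member was higher with groups apart, and 2 members of 40 were lower in that way, beside 4.51% of all genes. They were Lpin1, a phosphatidate phosphatase, at 82.7, 91.8 and 88.2 against 98.2, 94.6 and 96.6 TPM, and the arrestin-like Arrdc2, at 19.5, 21.5 and 22.1 against 29.2, 24.3 and 23.7. The intervals of 36 members lay within a 2-fold change. Leaving out 1 library moved the median from -0.15 without saline replicate 2 to 0.025 without saline replicate 3, so its sign rests on saline replicate 3. Per1 shows this: it was at 29.5, 29.2 and 32.8 TPM in dexamethasone and 23.1, 26.9 and 64.9 in saline, where saline replicate 3 alone exceeded all other libraries, and the difference of -0.17 ± 0.31 became 0.28 without it.

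**Figure D2:**
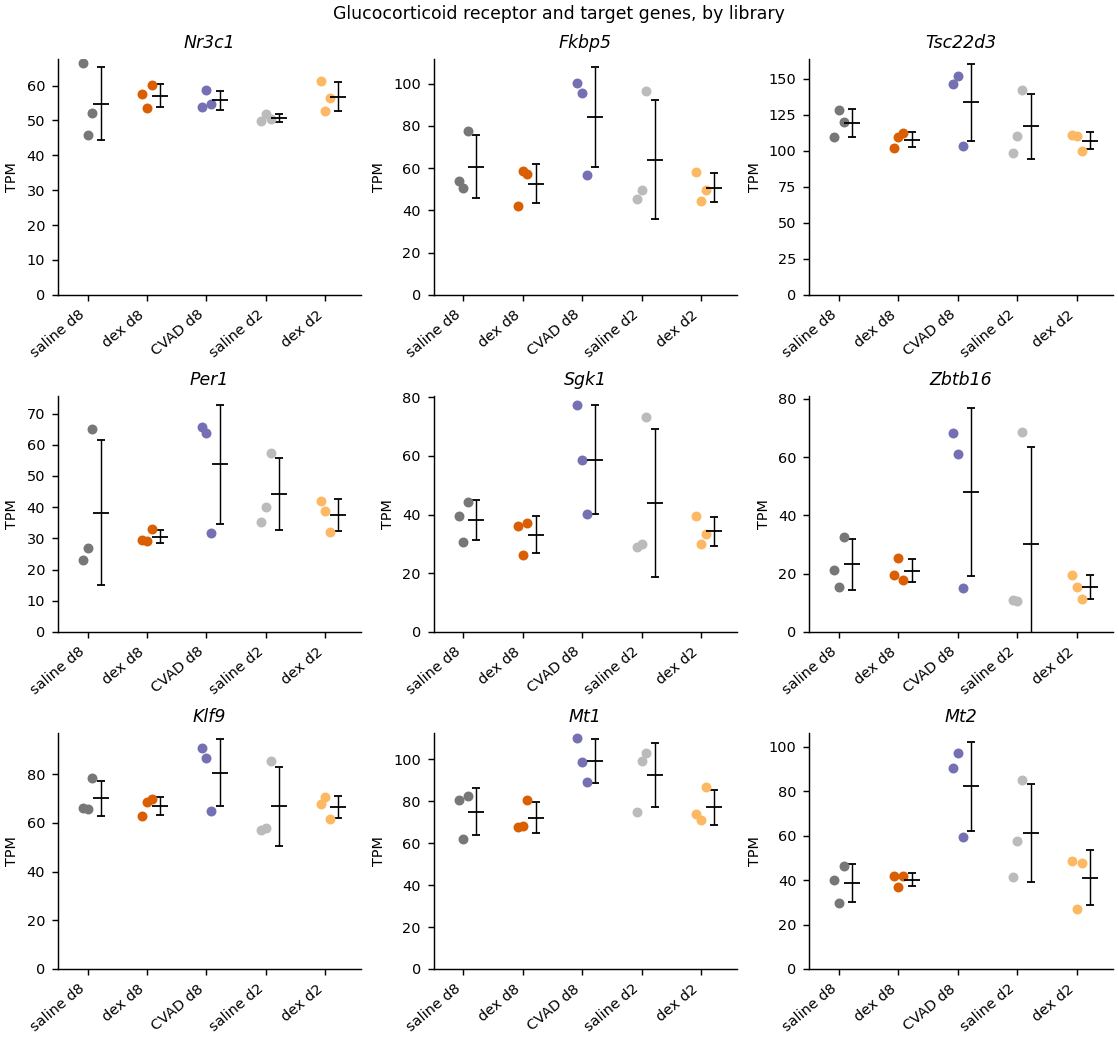
TPM (vertical axes, from 0) of the receptor gene and 8 of its targets in each library of saline and dexamethasone (dex) on days 8 and 2 and of CVAD on day 8, with bars for mean ± SD (cut at 0). In each panel the dexamethasone points of day 8 overlap the range of the saline points, while CVAD replicates 1 and 2 lie high for Fkbp5, Per1, Sgk1, Zbtb16 and Mt2.

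RefSeq promoter windows of build GRCm38.p6, from 250 bases before to 50 after the start site, were searched on both strands for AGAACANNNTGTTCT, the receptor's palindrome, and for its 11-base part GAACANNNTGT. Of 32851 windows, 3 held the palindrome (0.00913%) and 319 the shorter motif (0.971%), which includes every palindrome. Counted by gene, 3 of 27025 symbols held the palindrome (0.0111%) and 303 the shorter motif (1.12%). Of the 40 induced genes 35 had windows (50 in all), and 1 held the palindrome (Sgk1) and 4 the shorter motif (Sgk1, Mt1, Map3k6 and Fam107a). They are shown because they are the members whose windows hold these letters. Each is given 5′ to 3′ on the gene's strand, at chr10:21993681-21993735 (plus), chr8:94178977-94179027 (plus), chr4:133240619-133240669 (plus) and chr14:8309865-8309915 (minus), with the motif in capitals. The capitals of Mt1, Map3k6 and Fam107a match the 11-base motif read on the opposite strand.
Sgk1: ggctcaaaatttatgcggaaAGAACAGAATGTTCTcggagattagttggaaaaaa
Mt1: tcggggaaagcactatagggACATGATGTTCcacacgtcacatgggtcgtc
Map3k6: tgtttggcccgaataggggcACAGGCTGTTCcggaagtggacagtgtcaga
Fam107a: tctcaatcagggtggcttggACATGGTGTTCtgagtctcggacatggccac
The capitals of Sgk1 run from 189 to 175 bases before the start site, and those of Mt1 from 92 to 82. None of these 4 genes separated dexamethasone from saline on day 8: Map3k6, a stress kinase, was at 6.04, 9.29 and 7.12 against 8.13, 6.11 and 10.4 TPM, and Fam107a, an actin-binding protein of stress responses, at 36.1, 24.2 and 34.9 against 38.6, 20.7 and 30.8. A match to these letters is a description of the window and shows no binding.

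Of 26 inflammatory genes that glucocorticoids are known to repress, 18 were tested, 7 were higher, 10 lower and 0 called, with a median of -0.095. Several had few TPM in saline as well: Il6 was below the filter, and Tnf was listed at 0, 0 and 1.22 TPM in saline and 0, 0 and 0.733 in dexamethasone. The chemokine gene Ccl2 was at 8.42, 10.1 and 6.06 TPM against 13.5, 7.47 and 12.7, and Cxcl10, an interferon-induced chemokine, at 2.46, 4.24 and 5.88 against 5.68, 5.78 and 6.11. Both pairs of groups overlapped. Groups were apart for 2 members, both lower, of the 18 tested, beside 4.51% of all genes. They were Mmp9, a matrix-degrading protease, at 19.6, 20.5 and 19.2 against 23.3, 23.6 and 21.5 TPM (-0.19 ± 0.32), and Il1b, the cytokine interleukin-1 beta, at 1.87, 2.49 and 2.73 against 2.73, 3.87 and 2.99 (-0.32 ± 0.57). Ptgs2, which encodes cyclooxygenase 2, leaned the other way at 0.899, 1.41 and 1.69 against 0.777, 0.807 and 1.06 (0.30 ± 0.22, and 0.19 without dexamethasone replicate 3). The NF-kB subunit genes Nfkb1 and Nfkb2 were at 62.4 ± 3.58 against 65.9 ± 10.1 and 21.9 ± 3.85 against 18.6 ± 1.85.

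Glucocorticoids also reset the circadian clock in peripheral tissue, in which Arntl (BMAL1), Clock and Npas2 form the activating arm and the Per, Cry and Nr1d genes the repressing arm. The clock list holds 20 symbols, and Arntl and Bmal1 among them name the same gene. In all 17 were tested, 5 were higher, 12 lower and 0 called, with a median of -0.10. Arntl was at 21.1, 22.5 and 29.4 TPM in dexamethasone and 26.1, 23.02 and 10.01 in saline. The low value belonged to saline replicate 3, which was the highest of the 6 libraries for Arntl's opposing genes. Nr1d1, the repressor REV-ERB alpha, was at 47.3, 38.8 and 43.9 against 48.3, 23.8 and 80.5 TPM. Dbp, an output factor of the clock, was at 29.4, 16.6 and 24.9 against 22.97, 15.1 and 64.7, and Ciart, a clock repressor, at 5.97, 4.09 and 2.67 against 3.29, 2.02 and 11.7. Without saline replicate 3 the list's median was 0.08 and the difference of Arntl changed from 0.38 to -0.025. The time of day of each collection is not given in the sources used here, and its part in these values was not tested.

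**Figure D3:**
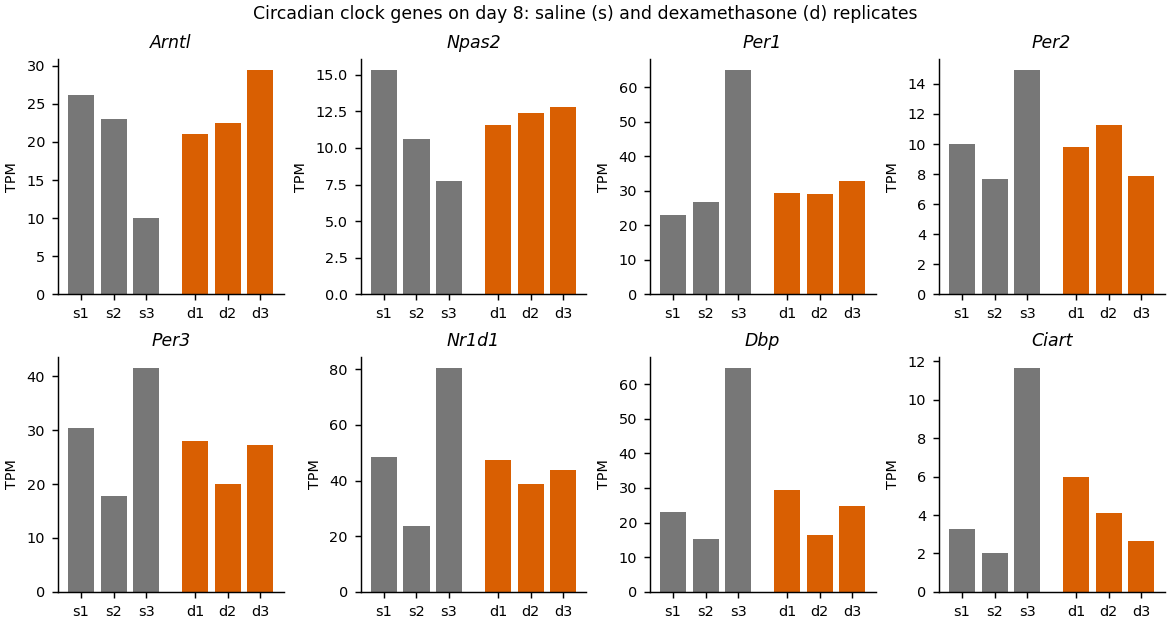
TPM (vertical axes, from 0) of 8 clock genes in each saline (grey, s1 to s3) and dexamethasone (orange, d1 to d3) library of day 8. Saline replicate 3 is the lowest of 6 for Arntl and Npas2 and the highest of 6 for Per1, Per2, Per3, Nr1d1, Dbp and Ciart.

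Immune cell lists differed in their direction, and none had a member called. The share of all genes with a fitted value below 0 was 56%. Of 17 neutrophil genes 15 were tested and 14 were lower, with a median of -0.23, and leaving out 1 library moved it from -0.33 without saline replicate 1 to -0.10 without saline replicate 3. Elane, the granule protease neutrophil elastase, was at 8.87, 8.13 and 12.3 TPM in dexamethasone and 13.2, 19.2 and 27.1 in saline (-0.91 ± 0.40, unadjusted p = 0.033 in limma). All dexamethasone values lay below all saline values. Mpo (myeloperoxidase), Prtn3 (proteinase 3) and Ctsg (cathepsin G), proteins of the same primary granules, were at 11.8, 12.6 and 25.96 against 15.2, 27.8 and 39.2, 10.5, 9.06 and 11.8 against 10.5, 20.8 and 23.9 and 4.76, 3.08 and 4.64 against 4.88, 6.47 and 9.02 TPM. Of these 3 genes, only Ctsg had groups apart. Elane and Ctsg were the only 2 of the 15 neutrophil genes tested with groups apart, beside 4.51% of all genes lower in that way. Ngp, a granule protein gene, was at 92.2 ± 5.05 against 103 ± 16.7, and Camp, the cathelicidin gene, at 31.8 ± 3.20 against 38.01 ± 8.95.

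T and NK cell genes had few TPM in all 6 libraries. Of 16 T and NK cell genes 9 were tested, 6 were lower and 2 higher, with a median of -0.37, and 4 of the others, Cd3e among them, were at 0 in all 30 libraries. The summed level of the list was 9.04, 19.6 and 18.9 TPM in dexamethasone and 25.6, 19.5 and 26.5 in saline. Trbc2, a T cell receptor constant region gene, was listed at 0, 0 and 1.50 TPM against 2.03, 4.78 and 2.26, and Cd2, an adhesion receptor of T and NK cells, at 0, 0 and 0.409 against 1.22, 1.73 and 1.004. The NK receptor gene Klrd1 (CD94), which is not in the list, was listed at 0 in all 3 dexamethasone libraries and at 3.35, 2.12 and 1.09 in saline. At these levels the groups differ by a few TPM. B cell genes were more abundant, with a summed level of 173, 262 and 252 TPM in dexamethasone and 235, 262 and 194 in saline. Of 13 B cell genes tested 9 were higher and 4 lower, with a median of 0.21, and 2 of the 13 intervals lay within a 2-fold change. Of 11 mast cell and eosinophil genes tested 7 were higher and 4 lower, with a median of 0.021. The mast cell protease gene Mcpt4 alone had groups apart, at 12.3, 17.5 and 17.6 TPM against 20.6, 18.9 and 20.4 (-0.34 ± 0.22). It was 1 of the 11 tested, beside 4.51% of all genes lower in that way.

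Most macrophage and interferon response genes had fitted values below 0. Of 20 macrophage genes 14 were lower, with a median of -0.13. Ctss, the lysosomal protease cathepsin S, was at 24.8, 26.8 and 28.3 TPM against 36.6, 35.3 and 32.05 (-0.37 ± 0.18), and Ccr2, the receptor that recruits monocytes, at 8.85, 8.85 and 9.02 against 16.9, 11.8 and 9.98 (-0.46 ± 0.25, and -0.26 without saline replicate 1). Both had groups apart, the only 2 of the 20 macrophage genes, beside 4.51% of all genes lower in that way. Of 20 interferon response genes 17 were lower, with a median of -0.14, and leaving out 1 library moved it from -0.18 without saline replicate 2 to -0.017 without saline replicate 1. Gbp2, an interferon-induced GTPase, was at 16.5, 17.7 and 17.4 against 46.5, 27.2 and 18.4, and saline replicate 1 was far above the other libraries. Its difference of -0.70 ± 0.20 became -0.36 without that library. The 8 MHC class II genes split 4 higher and 4 lower, with Cd74, the invariant chain, at 127 ± 20.6 against 132 ± 27.01. Plvap, a protein of fenestrated endothelium, was at 32.1, 34.1 and 30.9 against 39.9, 38.8 and 56.2 (-0.44 ± 0.16, unadjusted p = 0.0089 in limma), and the difference was -0.27 without saline replicate 3. Of the 15 endothelial genes 10 were lower, with a median of -0.054.

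**Figure D4:**
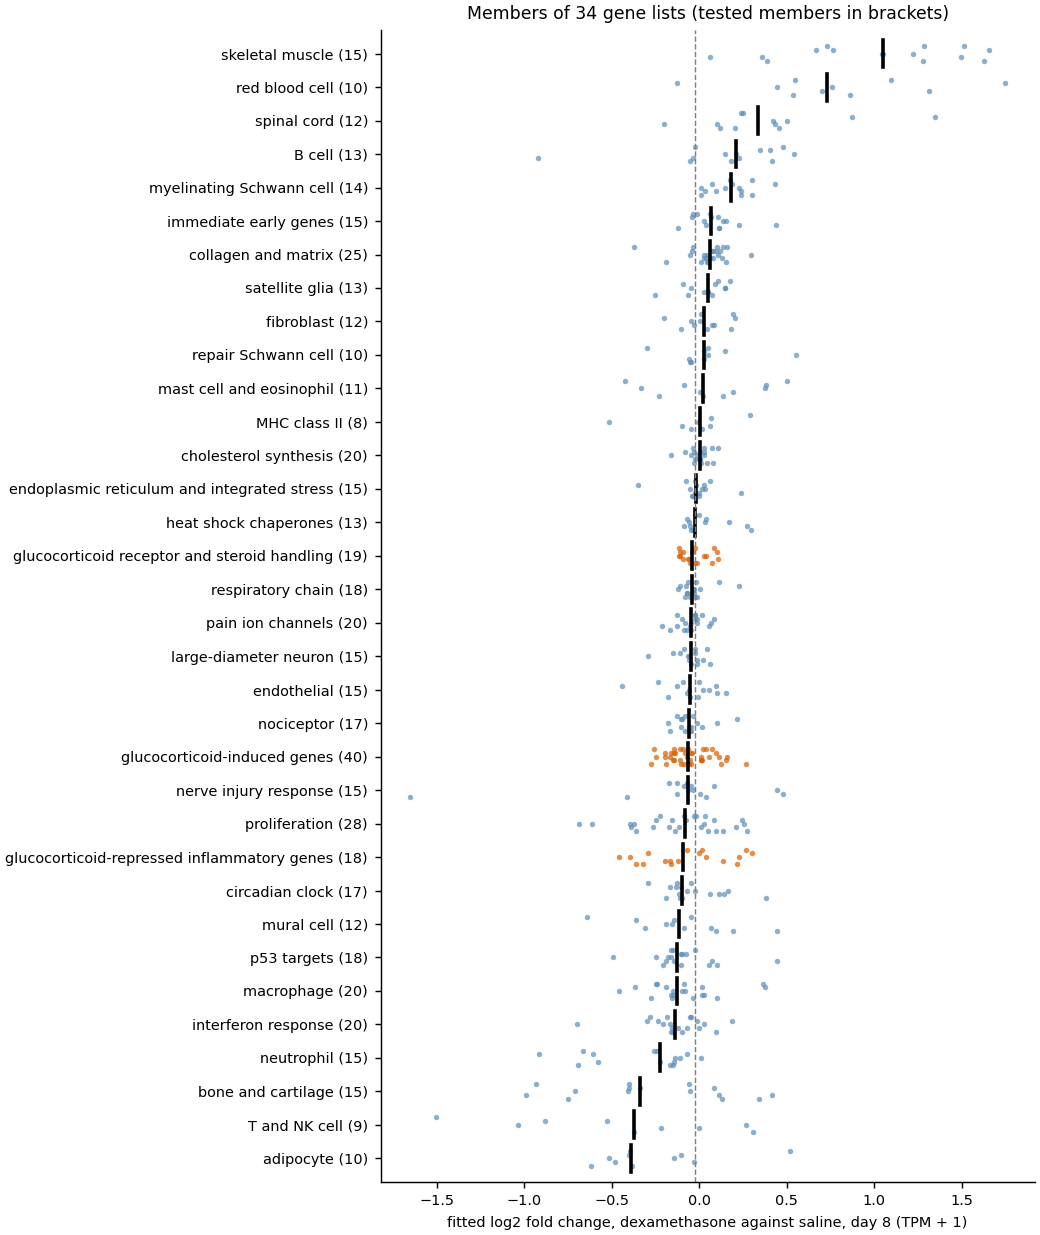
Fitted log2 fold change of dexamethasone against saline on day 8 (horizontal axis) for each tested member (points) of 34 gene lists, with a black bar for each list's median and a dashed line for the median of all genes (-0.023). Orange marks the lists of the glucocorticoid receptor and steroid handling, of glucocorticoid-induced genes and of glucocorticoid-repressed inflammatory genes. The medians of 21 lists lie within 0.1 of 0, and muscle, red blood cell and adipocyte genes lie farthest out.

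Neuronal genes had narrow intervals around small differences. Of 17 nociceptor genes 14 were lower, with a median of -0.058, and of 15 large-diameter neuron genes 12 were lower, with a median of -0.049. All 17 and all 15 intervals lay within a 2-fold change. Calca, which encodes the neuropeptide CGRP, was at 242, 264 and 279 TPM in dexamethasone and 267, 301 and 245 in saline, with an interval of -0.29 to 0.19. Tac1, the precursor gene of substance P, was at 112, 131 and 115 against 130.5, 154 and 122. Of 20 ion channel genes of pain signalling 16 were lower, with a median of -0.048. Groups were apart for 1 of these 20 and for 2 of the 15 large-diameter neuron genes, all lower, beside 4.51% of all genes. An unadjusted p under 0.05 in limma was reached by 1 of the 20 ion channel genes, beside 3.26% of all genes. The capsaicin receptor Trpv1 was at 76.98, 90.8 and 89.3 against 93.5, 88.8 and 92.5, the irritant receptor Trpa1 at 40.1 ± 3.05 against 43.9 ± 3.68, and the cold receptor Trpm8 at 39.7 ± 2.10 against 44.8 ± 5.05.

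No gene of the nerve injury response was called. Of 20 such genes 15 were tested, 5 were higher and 10 lower, with a median of -0.067. Groups were apart for 1 of the 15, which was higher, beside 2.01% of all genes higher in that way. Atf3, the transcription factor that injured sensory neurons switch on, was at 8.74, 15.3 and 9.26 TPM in dexamethasone and 15.98, 9.53 and 20.7 in saline. Npy, which encodes neuropeptide Y, was listed at 0 in all dexamethasone libraries and at 5.82, 0 and 3.55 in saline, and the neurotensin gene Nts was at 11.03, 17.5 and 16.8 against 10.4, 8.71 and 12.3.

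All 14 myelinating Schwann cell genes were higher in dexamethasone, with a median of 0.18 and 0 called, and no member had groups apart. Mag, a myelin adhesion protein, was at 98.5, 51.1 and 94.4 TPM against 96.2, 46.2 and 42.9, and Cldn19, a claudin of Schwann cells, at 117, 74.1 and 127 against 118, 69.5 and 71.4. In both, dexamethasone replicates 1 and 3 and saline replicate 1 formed the upper values. Mbp, a compact myelin gene, was at 423 ± 71.1 against 394 ± 47.3. Leaving out 1 library moved the list's median from 0.053 without saline replicate 3 to 0.36 without dexamethasone replicate 2. Mag is also in the spinal cord list, of which 11 of 12 tested genes were higher. The summed level of the spinal cord list was 400.5, 244 and 358 TPM in dexamethasone and 351, 242 and 239.8 in saline. This sum includes Mag, so it is not independent of the myelin values. The part of spinal cord tissue in the myelin values was not tested. Of 13 satellite glia genes 9 were higher (median 0.05), and of 25 collagen and matrix genes 20 were higher (median 0.059), with Col1a1 at 215 ± 33.9 against 212 ± 23.2.

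Genes of neighbouring tissue varied widely between libraries. The summed level of 15 skeletal muscle genes was 1098, 829 and 157 TPM in dexamethasone and 99.2, 755 and 445 in saline. All 15 were higher, with a median of 1.05, and it became -0.20 without saline replicate 1. The summed level of 10 red blood cell genes was 150.5, 98.7 and 137 TPM against 234, 176 and 0.818, so that saline replicate 3 held almost none. The list's median of 0.73 became -0.62 without that library. Neither list had a member called or with groups apart.

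No proliferation or DNA damage gene was called. Of 28 proliferation genes 17 were lower, with a median of -0.083 that moved from -0.38 without saline replicate 3 to 0.12 without saline replicate 1. Mki67, the gene of the Ki-67 antigen, was at 14.6, 11.04 and 14.2 TPM in dexamethasone and 19.1, 15.9 and 6.64 in saline. Of 18 tested p53 targets 14 were lower, with a median of -0.12 that became -0.017 without saline replicate 3. In that library Aen, an exonuclease gene induced by p53, was at 82.7 TPM, while the other 5 libraries stood between 28.8 and 35.4 (32.05, 28.8 and 34.4 in dexamethasone, 35.4, 31.02 and 82.7 in saline).

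Coding genes with the smallest p in each direction were named by a rule that also required groups apart, and none of the 20 is called. The largest fitted differences above 0 were those of Eps8l1, an actin regulator, at 17.4, 20.2 and 53.3 TPM in dexamethasone and 0.959, 7.49 and 11.99 in saline (2.21 ± 0.55, and 1.40 without saline replicate 1), and of Mrln, a micropeptide of muscle, listed at 6.10, 3.24 and 1.97 against 0, 1.08 and 0. The part of the skeletal muscle levels given above in the Mrln values was not tested. Among abundant genes the differences were small and tight. The zinc finger gene Zfp90 was at 19.1, 20.2 and 20.5 against 16.5, 13.6 and 15.1 (0.39 ± 0.084, adjusted p = 0.574 in limma). Trappc9, a vesicle tethering subunit gene, was at 127, 118 and 119 against 93.8, 94.6 and 96.4 (0.35 ± 0.11), but its span holds the noncoding Peg13 on the same strand, so reads of the 2 genes may be split uncertainly. Atat1, the alpha-tubulin acetyltransferase gene, was at 66.3, 57.7 and 63.6 against 57.4, 39.4 and 47.1 (0.39 ± 0.13, and 0.26 without saline replicate 2). The other 5 higher genes were Bcdin3d, Fxyd3, Pradc1, Fbxl12 and Kctd6, with differences of 0.74, 0.59, 0.39, 0.40 and 0.56.

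The genes lower in dexamethasone by the same rule included Klrd1 and Gbp2, given above. Tap1, which carries peptides to MHC class I, was at 16.3, 15.7 and 16.7 TPM in dexamethasone and 29.4, 22.1 and 22.1 in saline (-0.55 ± 0.17). Irf2, a transcription factor of interferon signalling, was at 43.9, 50.7 and 48.9 against 64.3, 56.9 and 60.2 (-0.33 ± 0.091). The growth factor regulators Pappa2 and Scube3 were at 5.61, 8.48 and 4.89 against 8.63, 8.93 and 16.4 and 1.67, 2.69 and 3.51 against 4.28, 4.44 and 5.09. Pax1, a transcription factor of the vertebral column, was at 1.10, 1.18 and 1.05 against 3.22, 2.31 and 5.27 (-1.07 ± 0.24), and Hexim2, an inhibitor of the elongation factor P-TEFb, at 6.66, 8.23 and 7.84 against 18.6, 12.9 and 10.5. The crystallin gene Cryba2 was listed at 0, 2.87 and 0 against 7.14, 6.96 and 5.56. Zc3h11a was at 56.4, 53.8 and 66.9 against 82.4, 80.1 and 81.6, but Zbed6 and another, much less abundant entry of the same symbol share nearly its whole span on the same strand, so its reads may be split uncertainly. On day 2 the fitted values of Gbp2, Tap1, Irf2 and Klrd1 were 0.13, 0.20, 0.0033 and 1.28.

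**Figure D5:**
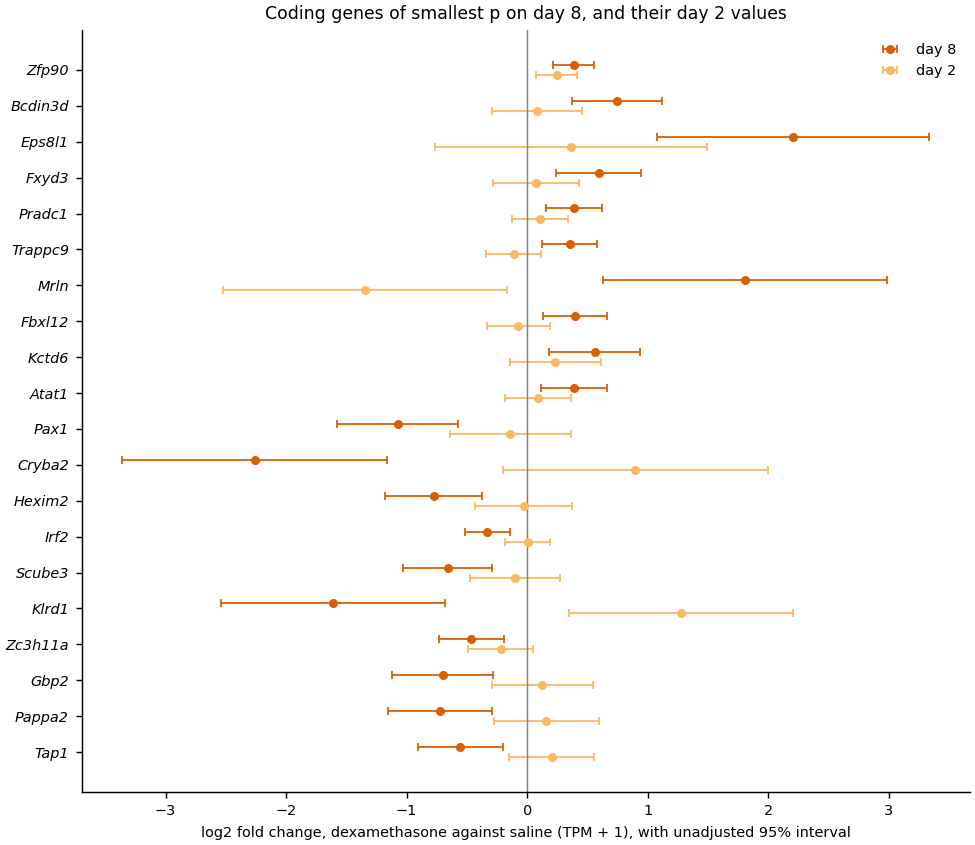
Fitted log2 fold change of dexamethasone against saline (horizontal axis, points) with unadjusted 95% intervals (bars) for the 20 coding genes of smallest p on day 8, on day 8 (dark orange) and on day 2 (light orange). The day 8 values chose the genes, and 0 of the 20 are called.

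The smallest adjusted p of the comparison belonged to an annotation entry rather than to a gene's total. Rmrp encodes the RNA of RNase MRP, a ribosomal RNA processing enzyme, and the table lists it as 2 overlapping entries on chromosome 4, a lncRNA entry at 43492783 to 43493063 and a ribozyme entry at 43492788 to 43493058, in the table's own coordinates. The lncRNA entry stood at 8.96, 9.68 and 8.72 TPM in dexamethasone and 0.33, 0.0367 and 0.286 in saline. Of the 27 libraries outside the dexamethasone group 1 exceeded 1 TPM, at 10.3. The sum of both entries was 224 ± 18.6 TPM in dexamethasone and 229 ± 25.03 in saline, so the split between the entries differed and the total did not separate the groups. The lncRNA entry was called in a model of the groups of 1 day and in one of dexamethasone and saline of day 8 alone. It met the filter of 3 libraries only through the dexamethasone group of day 8, where it is high. Its p-values and these calls are therefore description only.

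On day 2 dexamethasone was compared with saline in another 3 and 3 libraries, which share no library with day 8. There 1 gene was called (0.00393%), an unnamed misc_RNA entry that fell, and 1365 genes (5.37%) had an unadjusted p under 0.05. In that set 1097 were higher (4.31%), or 80.4%, and 54.6% with median-ratio scaling. Without dexamethasone day 2 replicate 3 the count called was 76, most of them pseudogene and small RNA entries and few labelled protein-coding. The dexamethasone libraries left were then numbers 7 and 8, within libraries 1 to 8, and the saline libraries were numbers 10 to 12. The part of this numbering in the count was not tested. Of the glucocorticoid-induced genes 8 were higher and 32 lower on day 2, beside 33.7% of all genes with a value below 0. Their median was -0.10 beside 0.057 for all genes, and leaving out 1 library moved it from -0.18 without saline replicate 1 to 0.067 without saline replicate 3. Saline replicate 3 of day 2 was high for several: Fkbp5 was at 58.1, 44.4 and 49.6 TPM in dexamethasone and 45.5, 49.8 and 96.5 in saline, Zbtb16 at 19.4, 15.3 and 11.3 against 10.9, 10.6 and 68.6, and Sgk1 at 39.5, 29.99 and 33.2 against 29.04, 30.01 and 73.2.

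The difference of the dexamethasone response between day 8 and day 2, tested as an interaction in the same model, had 0 genes called (0%) and 1251 at an unadjusted p under 0.05 (4.92%), 21.7% of them above 0 as deposited and 47.4% with median-ratio scaling. The median over all genes was -0.083, and that of the glucocorticoid-induced genes was 0.026. For Fkbp5 the difference between days was 0.064 ± 0.36 with an interval of -0.69 to 0.82, and for Tsc22d3 -0.032 ± 0.19 with an interval of -0.42 to 0.35. Klrd1 was listed at 1.25, 1.34 and 1.71 TPM in dexamethasone and at 0 in all saline libraries of day 2, the opposite order to day 8, and its interaction was -2.89 ± 0.64 with an adjusted p of 0.677 in limma. It was called in a model of dexamethasone and saline of both days alone. Klrd1 was named for its day 8 values, which the interaction uses again. It was also listed at 0 in all dexamethasone libraries of day 8, so these groups at 0 show no spread. Its interaction and this call are therefore description only. Ccr2 was at 13.8, 13.5 and 9.40 against 6.96, 5.81 and 8.35 on day 2, also in the opposite order, with an interaction of -1.17 ± 0.36 and an adjusted p of 0.932 in limma.

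CVAD contains dexamethasone with 3 cytotoxic drugs, and dexamethasone alone was set against it on day 8. No gene was called (0%), 1257 (4.94%) had an unadjusted p under 0.05 (37.1% of them higher in dexamethasone, and 53.1% with median-ratio scaling), and 2597 (10.2%) had groups apart, 873 higher (3.43%) and 1724 lower (6.78%) in dexamethasone. Of the glucocorticoid-induced genes 35 of 40 were lower in dexamethasone alone than in CVAD, beside 60.9% of all genes, with a median of -0.20 beside -0.040 for all genes. Groups were apart for 7 lower members and 1 higher. Mt2 was at 41.9, 36.9 and 41.9 TPM in dexamethasone and 90.4, 97.03 and 59.5 in CVAD (-0.99 ± 0.25, adjusted p = 0.493 in limma), and Mt1 at 67.8, 68.2 and 80.7 against 110.1, 98.5 and 88.95 (-0.45 ± 0.12). Sgk1 was at 77.4, 58.5 and 40.3 in CVAD, above all 3 dexamethasone values, and Fkbp5 at 100.3, 95.3 and 56.8, where replicate 3 lay within the dexamethasone range. Leaving out 1 library moved the list's median from -0.30 without CVAD replicate 3 to -0.12 without CVAD replicate 1. CVAD and saline are both compared here with the same dexamethasone libraries, so the 2 sets of values are not independent.

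The 1 induced gene that was higher in dexamethasone than in CVAD with groups apart was Lcn2, an iron-carrier binding protein that is also in the neutrophil list, at 42.1, 49.3 and 53.5 against 22.9, 16.2 and 16.9 TPM. All 15 neutrophil genes tested were higher in dexamethasone than in CVAD, each with groups apart, beside 3.43% of all genes, with a median of 1.27. Leaving out 1 library moved it from 1.19 without dexamethasone replicate 3 to 1.48 without CVAD replicate 1. Camp was at 28.2, 34.2 and 33.2 TPM in dexamethasone and 8.80, 8.69 and 9.15 in CVAD (1.73 ± 0.35, adjusted p = 0.177 in limma, and called in a model of these groups alone), and Ngp at 86.8, 92.9 and 96.8 against 38.7, 40.4 and 23.8 (1.43 ± 0.29). Against saline the same members stood at -0.23 and -0.15. Of 28 proliferation genes 24 were higher in dexamethasone than in CVAD, beside 38% of all genes, with a median of 0.43, and 14 had groups apart. The heat shock genes Hspa1a and Hspa1b, near-identical copies whose reads may be split uncertainly, were lower in dexamethasone, at 20.8, 33.6 and 23.5 against 36.4, 38.3 and 54.2 and 23.02, 32.4 and 26.4 against 36.3, 37.1 and 46.5 TPM.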

How the data were processed

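Total RNA depleted of ribosomal RNA was made into stranded libraries, per the labels' protocols. Per the submitters' processing notes, the tools were StringTie 2.2.1, STAR 2.7.10b and FastQC 0.12.1, and the builds mm10 and GRCm39 have no role stated. The deposited table holds TPM per gene for 30 libraries, each scaled by the authors to about 1e+06, so read depth is unknown. Groups come from the treatment labels. All 30 libraries entered 1 linear model with a mean per group in limma 3.58.1 (R 4.3.3, variance trend) on log2(TPM + 1), for genes of at least 1 TPM in at least 3 libraries. P-values are 2-sided and adjusted by Benjamini-Hochberg over 25434 genes, with a threshold of 0.05. An exact permutation test of 3 against 3 cannot go below 0.1 and was not used. Each gene has 1 variance, pooled over the 10 groups. A list is described by its counts and median, with no test of its own. Tables and figures used Python 3.11.15, pandas 2.3.3, numpy 2.4.6 and matplotlib 3.10.9, and the fit was tested on simulated data.

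The members and the 34 lists were chosen with earlier results of these data known. Of 561 list symbols, 558 are in the table, 523 passed the filter and 15 were at 0 in every library. For repeated symbols the most abundant entry stands for the gene. Genes were named by a rule: with fewer than 10 called in a direction, the 10 coding genes with a symbol of smallest p, a mean of at least 2 TPM in 1 group and groups apart; from each list the 4 members whose p was smallest; and Nr3c1, Fkbp5, Tsc22d3, Per1, Sgk1, Zbtb16, Klf9, Mt1, Mt2, Pdk4 and Cdkn1a. The text gives a part of these. Other members were chosen for their known role, and Rmrp, Npy, Mmp9, Il1b, Mcpt4 and the other members that stand apart in 1 library after their values were seen. Alternatives were median-ratio scaling, no filter, a pseudocount of 0.1, smaller models, a model term for libraries 1 to 8, coding genes alone, library quality weights and the omission of each library. The omission of libraries for lists on day 2, between days and against CVAD was added after seeing the data. TPM allow no count test, so none was run.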

Additional observations from a re-analysis of the deposited data

How the results depend on the processing

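No paired analysis was possible because the labels number every library separately, so no number is shared between groups. On day 8 against saline, 0 genes were called with median-ratio scaling, library quality weights, coding genes alone or the term for libraries 1 to 8, 1 with a pseudocount of 0.1, 1 with no filter, 1 in a model of 1 day (the Rmrp entry) and 3 in a model of the groups compared, and 0 to 3 with 1 library left out (3 without saline replicate 3, 1 without dexamethasone replicate 3). On day 2 the count of 1 became 0 with a pseudocount of 0.1, with the groups compared and with coding genes alone, and 3 with the library term, and was 0 to 76 with 1 library left out. Between days it became 1 with a pseudocount of 0.1, 2 with no filter, 5 in a model of dexamethasone and saline of both days (Klrd1 among them) and 1 with the library term, and was 0 to 2 with 1 library left out (2 without dexamethasone day 8 replicate 3). Against CVAD it became 2 with a pseudocount of 0.1, 1 with no filter, 1 in a model of 1 day, 3 with the groups compared (Camp among them) and 1 with the library term, and was 0 to 2 with 1 library left out (2 without CVAD replicate 1 or dexamethasone replicate 3, 1 without CVAD replicate 3). The cause was not tested.

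Of 84 genes named beside Rmrp, 0 passed the threshold on day 8 under any alternative run. Leaving out 1 library turned the sign of 27 of them, whose fitted log2 values then ranged as follows: Arntl -0.025 to 0.625, Calca -0.116 to 0.031, Cd74 -0.228 to 0.059, Cdkn1a -0.127 to 0.202, Ciart -0.539 to 0.495, Col1a1 -0.080 to 0.150, Dbp -0.724 to 0.288, Dusp1 -0.089 to 0.163, Fam107a -0.138 to 0.296, Fos -0.106 to 0.448, Hsd11b1 -0.368 to 0.181, Klf9 -0.103 to 0.021, Map3k6 -0.283 to 0.056, Mbp -0.019 to 0.226, Mki67 -0.372 to 0.324, Mt1 -0.178 to 0.024, Mt2 -0.104 to 0.210, Nfkb1 -0.140 to 0.051, Nfkbia -0.200 to 0.025, Nr1d1 -0.521 to 0.337, Nr3c1 -0.046 to 0.216, Nr3c2 -0.008 to 0.209, Pdk4 -0.023 to 0.429, Per1 -0.446 to 0.281, Scn10a -0.118 to 0.035, Tnf -0.384 to 0.264, Zbtb16 -0.334 to 0.178. Other alternatives turned Cd74 to 0.034 with library quality weights, Cdkn1a to -0.032 with library quality weights and Mt2 to -0.010 with library quality weights. The median of the glucocorticoid-induced genes on day 8 moved by less than its spread between libraries under every alternative run. So did the medians of the other 33 lists. Leaving out 1 library of a group can hardly move a median by more than that spread, so those runs could not show stability. The spread is wide enough for a sign to turn, as it did for the skeletal muscle genes without saline replicate 1. Depth is unknown, and genes of few TPM have the widest intervals.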

Other observations

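Other lists that the comparison did not call were measured as follows on day 8. Of 10 adipocyte genes tested 9 were lower in dexamethasone, with a median of -0.39, and Adipoq, the adiponectin gene, was at 6.23, 10.5 and 10.7 TPM against 12.2, 13.2 and 17.9 in saline. Of 15 bone and cartilage genes 10 were lower, with a median of -0.34. Of 20 cholesterol synthesis genes 11 were higher and 9 lower, with a median of 0.0037 and every interval within a 2-fold change. Of 15 immediate early genes 11 were higher, with a median of 0.066, and Fos, the best known of them, was at 13.9, 29.7 and 28.2 TPM against 18.7, 32.1 and 15.2. Across the 34 lists, 6 of the 523 members tested had an unadjusted p under 0.05 in limma, beside 3.26% of all genes, and 0 were called.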
